A study of Rattus norvegicus with 17 samples.

Results

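Immediate early genes are switched on within minutes of a stimulus without new protein synthesis, from promoters that are already occupied by factors such as SRF, its ETS partners and CREB. Their products include the FOS and JUN proteins, which pair through leucine zippers to form the transcription factor AP-1, and feedback proteins such as dual specificity phosphatases that switch the MAP kinases off again. In T cells they follow triggering of the antigen receptor, and in many tissues they also follow stress. The group described here was given as 10 gene names, the AP-1 subunits Jun, Fos, Fosb, Junb and Jund, the MAP kinase phosphatases Dusp1 and Dusp2, the transcription factors Egr1 and Nr4a1, and Ier2. A row of the array table annotated to that symbol alone was found for 9 of the 10, out of 14506 genes with such a row, and each of the 9 had 1 row. Fosb had none and was not analysed here. All 9 lay among the 10879 genes kept after the dimmest 25% were left out.

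The RNA came from CD4+ T cells sorted from the inguinal lymph nodes of Dark Agouti rats, all female and of a strain prone to experimental autoimmune encephalomyelitis, 7 days after immunization with myelin oligodendrocyte glycoprotein (MOG). All rats were immunized. They ate a deprived (0 IU of vitamin D, 5 arrays), regular (2 IU, 6 arrays) or supplemented diet (10 IU, 6 arrays) from 5 weeks before immunization onward, and the study asked what vitamin D does to gene expression in them. The rats were age matched, with the age not given, and neither the amount of feed behind the IU nor any pooling of animals is given in the sources used here. Values are the authors' log2 expression values, 1 array per sample, so a difference of 1 is a doubling, and levels are compared only within a gene.

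The sort markers were well measured, Cd4 at 9.01 to 10.34 and Cd3e at 10.25 to 10.98 over the 17 arrays. Among genes of other cells, the B cell gene Ms4a1 stayed below the level filter at 4.87 to 5.76. The B cell gene Cd79b (6.74 to 7.6), Cd8a (6.34 to 7.38) and the myeloid gene Lyz2 (6.59 to 7.63) lay above the filter. The purity of the sort was not tested. The supplemented arrays stood apart from the rest: the standard deviation (SD) of their log2 values over the whole table, called array spread below, was 1.908 to 1.972, against 2.001 to 2.063 on regular and 2.027 to 2.073 on deprived arrays, with supplemented replicates 5 and 2 the smallest. No scan date or other batch was at hand. In such bulk samples, fewer cells that express a gene and less RNA per cell cannot be told apart.

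RefSeq promoter sequences (rat build GRCr8, 250 bases before to 50 after the annotated start) were at hand for 8 of the 10 members and not for Jun and Fos. The full cyclic AMP response element (CRE), TGACGTCA, occurred in 3 of the 8, Dusp1, Ier2 and Jund, and in 1.91% of the 27457 promoter windows of the same length. Its core site TGACG, which is contained in every full element, occurred in 7 of the 8 and in 22% of all windows. The CArG box bound by SRF was in Egr1 alone among the members, where it occurred as a pair, and in 1.64% of all windows. The AP-1 element TGANTCA (7.33% of all windows) was in 0 of the 8. A strict vitamin D receptor element of the DR3 type (0.0182% of all windows) and a strict palindromic glucocorticoid receptor element (0.00728%) were in 0 of the 8 as well. Both are so rare in such windows that their absence from 8 promoters carries no information. All motifs were searched on both strands. These counts describe letters in short windows and say nothing about binding. Shown are the 3 members with a full CRE, which behaved differently across the diets, and Egr1 with its CArG boxes. Capitals mark the CRE and its core sites, the CArG boxes and, in Jund, the EGR site GCGTGGGCG, and all are written 5′ to 3′ on the strand of the gene.
Dusp1, chr10:17184603-17184902, plus strand: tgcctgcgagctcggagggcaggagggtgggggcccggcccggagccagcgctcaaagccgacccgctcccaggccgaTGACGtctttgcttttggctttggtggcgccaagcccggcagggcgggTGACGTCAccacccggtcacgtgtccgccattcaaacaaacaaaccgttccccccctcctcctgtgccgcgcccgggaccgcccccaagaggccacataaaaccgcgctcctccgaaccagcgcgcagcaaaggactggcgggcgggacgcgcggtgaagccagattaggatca
Ier2, chr19:40399123-40399422, plus strand: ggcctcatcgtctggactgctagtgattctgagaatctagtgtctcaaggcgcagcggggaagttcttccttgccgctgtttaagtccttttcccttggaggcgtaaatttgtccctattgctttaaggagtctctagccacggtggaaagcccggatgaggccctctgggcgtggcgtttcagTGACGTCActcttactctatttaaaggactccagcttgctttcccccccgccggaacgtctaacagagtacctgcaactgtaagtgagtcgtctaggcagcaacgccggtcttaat
Jund, chr16:18769722-18770021, minus strand: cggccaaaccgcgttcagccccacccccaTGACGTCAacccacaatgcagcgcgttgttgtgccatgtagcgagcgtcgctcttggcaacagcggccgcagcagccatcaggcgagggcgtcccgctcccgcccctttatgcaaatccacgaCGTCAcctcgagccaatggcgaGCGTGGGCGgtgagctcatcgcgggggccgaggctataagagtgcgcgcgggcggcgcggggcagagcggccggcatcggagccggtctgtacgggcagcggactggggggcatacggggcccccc
Egr1, chr18:26736828-26737127, plus strand: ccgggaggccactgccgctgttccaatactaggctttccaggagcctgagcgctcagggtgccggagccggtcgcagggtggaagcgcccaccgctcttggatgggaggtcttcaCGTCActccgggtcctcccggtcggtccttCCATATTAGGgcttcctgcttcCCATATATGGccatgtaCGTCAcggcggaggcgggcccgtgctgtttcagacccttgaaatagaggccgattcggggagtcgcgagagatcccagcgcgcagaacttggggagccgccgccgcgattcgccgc
The full CRE began 124 bases before the start in Dusp1, 66 before it in Ier2 and 221 before it in Jund, and the CArG boxes of Egr1 began 105 and 83 bases before the start.

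Jun, Fos and Dusp1 were lowest in T cells of supplemented rats, Egr1 was slightly lower there, and Ier2 was higher, while the other AP-1 subunits Junb and Jund, the phosphatase Dusp2 and the orphan receptor gene Nr4a1 showed no called difference between any diets. Against the regular diet, 5 of the 9 members passed in limma (adjusted p below 0.05 over all 10879 genes), 4 lower and 1 higher. The share of all tested genes called was 33.7% (22.9% lower and 10.8% higher), so the count alone does not set the members apart. Groups that do not overlap at all were seen for 0 members and 12.1% of all genes. The median difference of the 9 members was -0.08 and that of all genes 0.00. By size, the difference of Jun was the most negative of all 10879 genes, that of Dusp1 ranked 33rd and that of Fos 97th from the bottom, and Ier2 ranked 127th from the top. These ranks ignore the spread of each gene. In SD within diets Jun, Fos and Dusp1 also ranked 2nd, 16th and 35th from the highest. The members were chosen with earlier results of these data known.

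**Figure D1:**
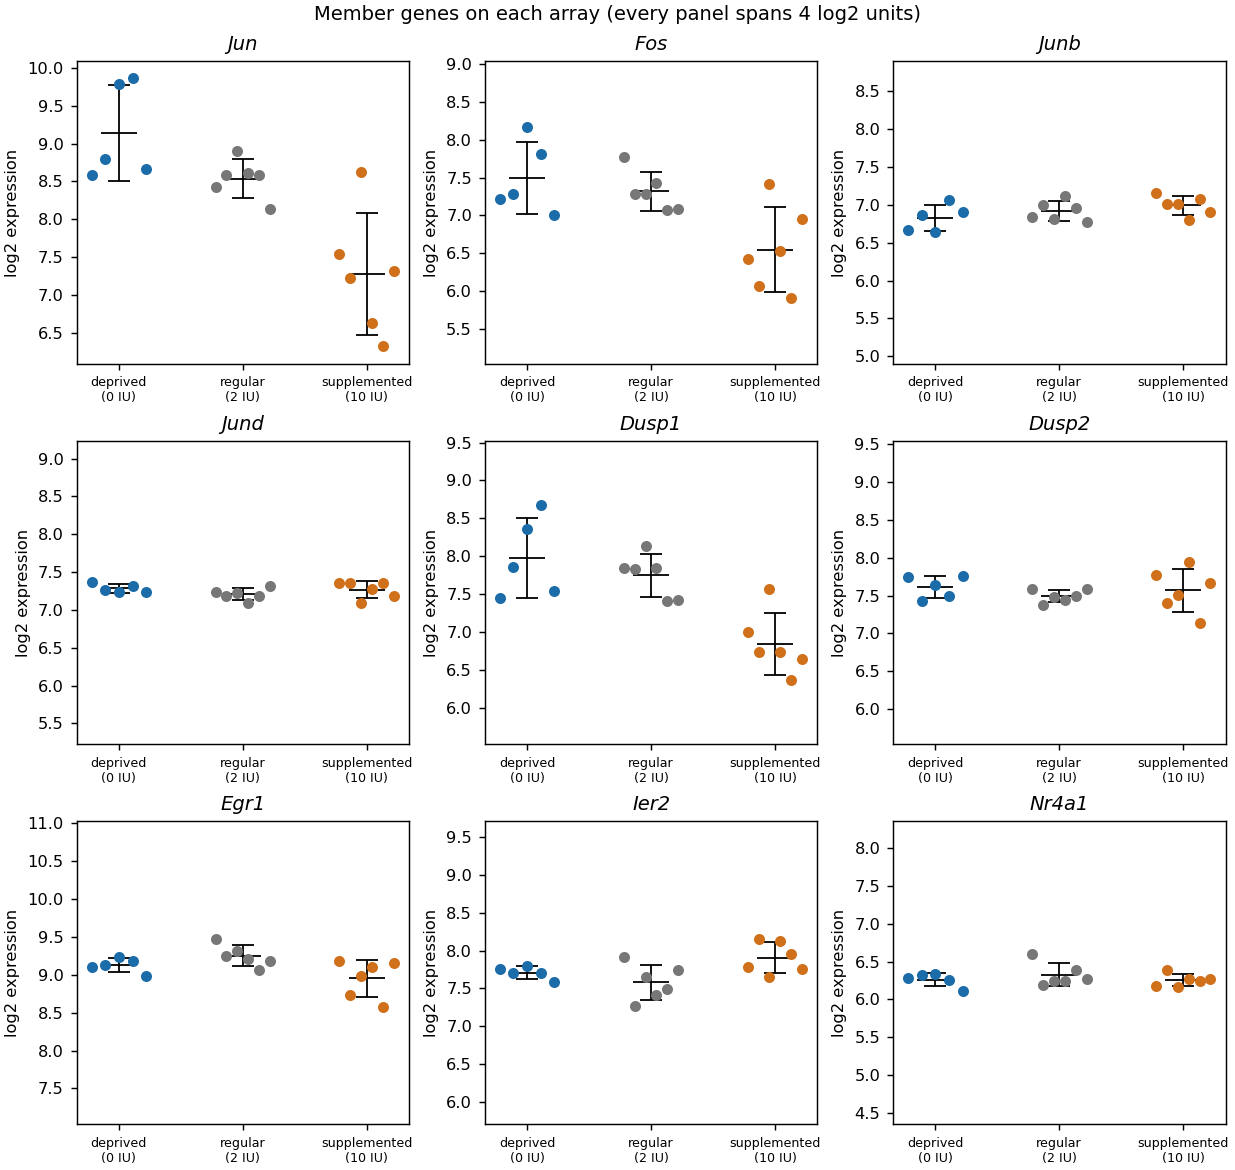
Log2 expression of the 9 measured members on every array, by diet (5 deprived, 6 regular and 6 supplemented arrays), with the mean and SD as black bars; every panel spans the same number of log2 units. Jun, Fos and Dusp1 drop on the supplemented arrays, where Jun runs from 6.32 to 8.63, while Jund stays between 7.09 and 7.37 on all arrays.

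Jun encodes the most studied JUN subunit of AP-1. On the deprived arrays, replicates 2 to 6, it measured 8.59, 8.79, 9.79, 9.86 and 8.66. Regular arrays ran from 8.13 over a median of 8.58 to 8.90, and supplemented arrays from 6.32 over 7.26 to 8.63. Of the 6 supplemented arrays, 5 lay below every regular array, and replicate 3, at 8.63, lay inside the regular range, so the groups overlapped through that array. The mean was 7.27 ± 0.81 (SD, n = 6) on the supplemented and 8.54 ± 0.25 (SD, n = 6) on the regular diet, a fall of 2.4-fold (log2 difference -1.26, SE 0.28, limma adjusted p = 0.00166). Leaving out each array in turn gave differences of -1.53 to -1.07, all of which passed.

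Fos encodes the partner that cannot form AP-1 without a JUN protein. It measured 7.22, 7.29, 8.17, 7.81 and 7.00 on deprived replicates 2 to 6, ran from 7.07 over 7.29 to 7.77 on regular arrays and from 5.91 over 6.48 to 7.41 on supplemented arrays. Again 5 of 6 supplemented arrays lay below all regular ones, and replicate 3 was the exception. The difference from the regular diet was -0.77 (SE 0.21, limma adjusted p = 0.00779), or 1.7-fold. Without supplemented replicates 2 and 5 it was -0.49 and did not pass (limma adjusted p = 0.0951).

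Junb and Jund, the other JUN genes, are known to be regulated differently from Jun, and Jund is abundant in resting cells. Junb measured 6.64 to 7.06 on deprived, 6.77 to 7.12 on regular and 6.80 to 7.16 on supplemented arrays, and Jund 7.24 to 7.37, 7.09 to 7.32 and 7.09 to 7.36. The groups overlapped in every comparison. Supplemented minus regular differences were 0.08 for Junb (95% interval -0.09 to 0.24) and 0.06 for Jund (-0.06 to 0.18), so a fall of the size seen for Jun lay outside both intervals.

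Dusp1, a nuclear phosphatase that inactivates p38, JNK and ERK and is itself induced by their activity, measured 7.45, 7.86, 8.36, 8.68 and 7.54 on deprived replicates 2 to 6. It ran from 7.41 over 7.83 to 8.13 on regular arrays and from 6.36 over 6.73 to 7.56 on supplemented arrays. As for Jun and Fos, 5 of 6 supplemented arrays lay below all regular arrays and replicate 3 did not. Its mean fell from 7.75 ± 0.28 (SD, n = 6) to 6.84 ± 0.41 (SD, n = 6), a difference of -0.91 (SE 0.19, limma adjusted p = 0.00107) or 1.88-fold. Dusp2, an ERK phosphatase of activated lymphocytes, had a supplemented minus regular difference of 0.08 (95% interval -0.13 to 0.29), and its supplemented arrays, 7.14 to 7.94, spanned the whole range of the others.

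Egr1, a zinc finger factor induced by ERK signalling, measured 9.10, 9.13, 9.24, 9.18 and 8.99 on deprived replicates 2 to 6. Regular arrays ran from 9.07 over 9.23 to 9.48 and supplemented arrays from 8.58 over 9.05 to 9.18, and 3 of 6 lay below all regular arrays. The difference of -0.30 (SE 0.09, limma adjusted p = 0.0176) was close to the threshold. It was -0.13 after quantile normalization (limma adjusted p = 0.254), -0.14 after cyclic loess (0.218) and -0.22 with array weights (0.0618), -0.25 without regular replicate 1 (0.0513), -0.22 without supplemented replicate 5 (0.0509) and -0.15 without supplemented replicates 2 and 5 (0.177), and passed in none of these.

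Ier2, a nuclear protein of the immediate early response, went the other way. It measured 7.76, 7.71, 7.80, 7.70 and 7.58 on deprived replicates 2 to 6, 7.27 over 7.57 to 7.91 on regular and 7.65 over 7.87 to 8.15 on supplemented arrays. All 6 supplemented arrays lay above the regular mean, and 3 above the highest regular array. The rise was 0.32 (SE 0.10, limma adjusted p = 0.0161). It did not pass with arrays centred on their medians (0.24, limma adjusted p = 0.0683) or without supplemented replicates 2 and 5 (0.25, limma adjusted p = 0.106). Nr4a1 (Nur77), which is widely used as a reporter of T cell receptor signals, measured 6.11 to 6.33 on deprived, 6.19 to 6.60 on regular and 6.16 to 6.39 on supplemented arrays, with a difference of -0.08 (95% interval -0.22 to 0.06). Its mean over the 17 arrays was 6.28, higher than that of only 29% of tested genes. Whether T cell receptor signalling differed was not tested.

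**Figure D2:**
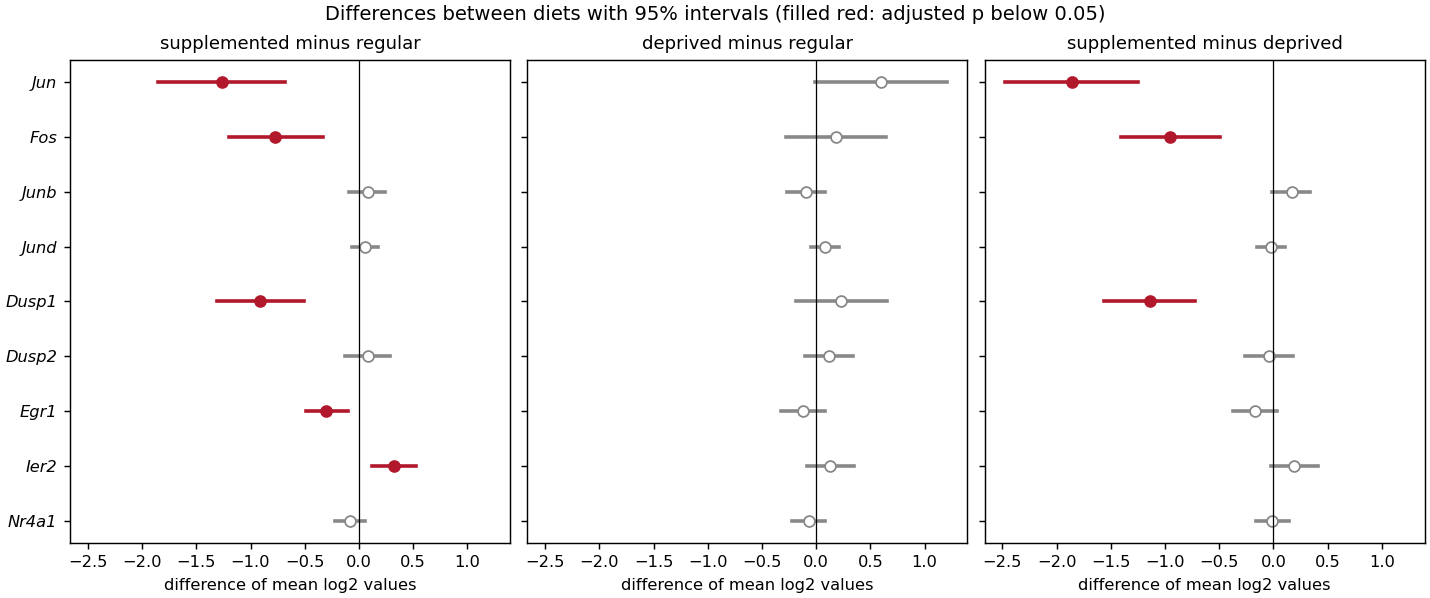
Differences of mean log2 values between diets for the 9 members (horizontal axis, log2 units) with 95% intervals from limma; filled red points passed at an adjusted p below 0.05 and open grey points did not. Jun, Fos and Dusp1 lie left of 0 in both comparisons with the supplemented diet, and 0 members passed between the deprived and regular diets.

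Between the deprived and the regular diet, 0 of the 9 members passed in limma, and 0 had an unadjusted p below 0.05. Of all genes 1.67% were called, 182 in number, and 1816 had an unadjusted p below 0.05. The count of 182 was sensitive to the loss of an array: it was 33 to 104 without any 1 of the 5 deprived arrays or of regular replicates 1, 2, 4, 5 and 6. The median difference of the members was 0.12, against 0.00 over all genes. Jun came nearest, at 0.60 (SE 0.30, limma adjusted p = 0.313), with a 95% interval of -0.01 to 1.21. The difference of Jun rested on deprived replicates 4 and 5, at 9.79 and 9.86, since the other 3 deprived arrays lay at 8.59 to 8.79 within the regular range. The same replicates had the highest Fos (8.17 and 7.81) and Dusp1 (8.36 and 8.68) of all arrays. The differences were 0.18 for Fos (95% interval -0.28 to 0.64) and 0.23 for Dusp1 (-0.19 to 0.65), so rises as large as the falls of these genes on the supplemented diet lay outside both intervals. Egr1 stood at -0.12 and Ier2 at 0.13, neither passing.

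Between the supplemented and the deprived diet 3 members passed in limma, all lower, where 47.2% of all genes were called (28.6% lower and 18.6% higher). The median of the members was -0.04, against 0.00 over all genes. This comparison shares the supplemented arrays with the first, and the first 2 share the regular arrays, so the 3 are not independent. Jun was 3.64-fold lower on the supplemented diet (log2 difference -1.86, SE 0.30, limma adjusted p = 3.53e-05), again the most negative difference of all genes. Dusp1 differed by -1.14 (SE 0.20, limma adjusted p = 0.000118) and Fos by -0.95 (SE 0.22, limma adjusted p = 0.00154). For each of the 3, 5 of 6 supplemented arrays lay below every deprived array, and supplemented replicate 3 overlapped. Groups that do not overlap at all were seen for 24.1% of all genes and for 0 members. Junb, at 0.17 (limma adjusted p = 0.102), passed without deprived replicate 5 (0.23, limma adjusted p = 0.0332) and without supplemented replicate 4 (0.21, limma adjusted p = 0.0489). Ier2, at 0.19 (limma adjusted p = 0.13), passed after quantile normalization (0.30, limma adjusted p = 0.0343) and cyclic loess (0.27, 0.0454). Egr1, at -0.17 (limma adjusted p = 0.142), passed with arrays centred on their medians (-0.28, limma adjusted p = 0.0369) and with the replicate number as a block (-0.22, 0.0445).

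The mean levels of Jun, Fos and Dusp1 thus stood in the order deprived, regular, supplemented, at 9.14, 8.54 and 7.27 for Jun, 7.50, 7.32 and 6.55 for Fos and 7.98, 7.75 and 6.84 for Dusp1. For all 3 genes the deprived and regular neighbours in that order did not differ beyond their spread, and the step to the supplemented diet did. Egr1 was highest on the regular diet (9.25, against 9.13 and 8.96) and Ier2 lowest there (7.58, against 7.71 and 7.90). In the F test over the 3 diets 5 members passed, Jun, Fos, Dusp1, Egr1 and Ier2, where 45.3% of all genes did.

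Apart from the diets, Jun, Fos and Dusp1 were among the most variable genes between arrays of 1 diet. The residual SD of Jun was 0.607, the second highest of the 10879 genes, and those of Fos (0.448) and Dusp1 (0.409) ranked 16th and 35th, while the median gene had 0.13. Jund, at 0.0855, was steadier than the median gene. The 3 variable genes moved together on the arrays: with each diet's mean removed, r over the 17 arrays was 0.89 between Jun and Dusp1 (Spearman 0.84), 0.77 between Jun and Fos (0.63) and 0.76 between Fos and Dusp1 (0.75). Without the 2 arrays farthest from the median of the first gene these were 0.85, 0.58 and 0.62. Jun and Dusp1 went together within each diet, at 0.97 on the 5 deprived, 0.72 on the 6 regular and 0.94 on the 6 supplemented arrays, whereas Jun and Fos did so on deprived (0.93) and supplemented (0.80) but not on regular arrays (0.09). Egr1 went with Fos (0.67) more than with Jun (0.39). Ier2 went with Nr4a1 (0.72) and Jund (0.60) and not with Jun (-0.37). Of the 36 pairs of members 7 had an r above 0.5, and the median was -0.03, so the 9 genes did not vary as 1 block. These correlations are descriptions, and the arrays share their normalization and differ in spread.

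**Figure D3:**
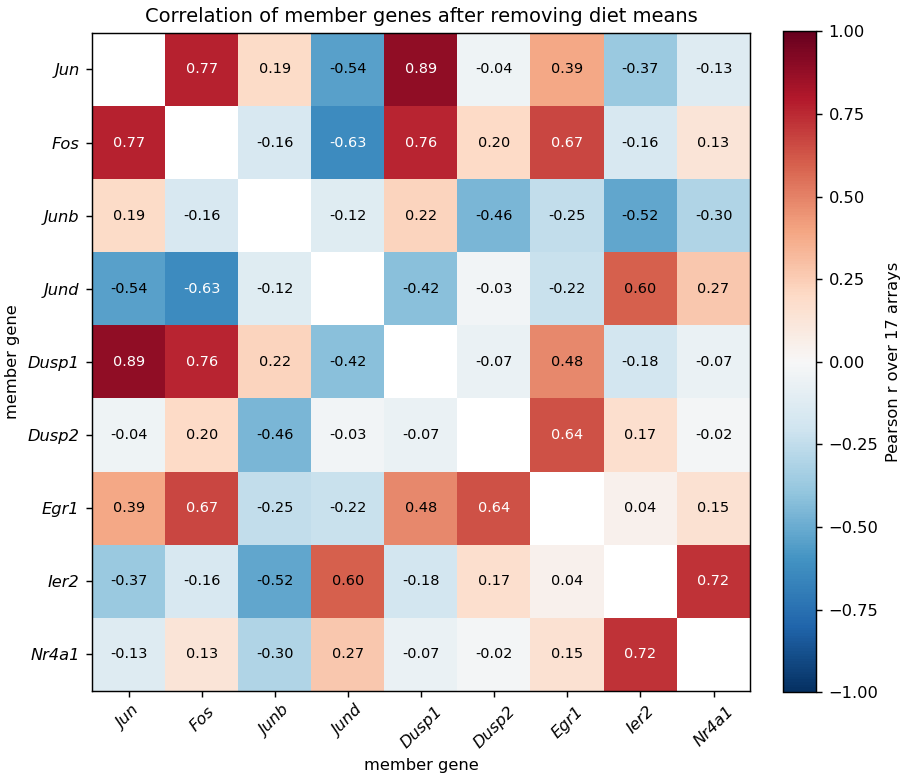
Pearson correlation over the 17 arrays between each pair of the 9 members after each diet's mean was removed, from -1 (blue) to 1 (red). Jun, Fos and Dusp1 form 1 group (0.76 to 0.89) and Ier2 and Nr4a1 another pair (0.72), and Jund runs against Jun (-0.54) and Fos (-0.63).

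Heat shock genes differed between the diets in both comparisons with the regular diet. The mean of the 15 tested heat shock genes was 9.33 to 9.71 on supplemented, 9.68 to 9.84 on regular and 10.05 to 10.31 on deprived arrays, and 10 of the 15 were lower on the supplemented than on the regular diet, 0 higher, for example the mitochondrial chaperonin Hspd1 (-0.47, SE 0.07). Of all tested genes 22.9% were lower and 10.8% higher in this comparison. The count of 10 became 6 after quantile normalization, 3 after cyclic loess and 6 without supplemented replicates 2 and 5. Between the deprived and regular diets 9 of the 15 were higher and 0 lower in limma (median 0.42), where 0 members passed and 1.67% of all genes were called. The 9 became 4 after quantile normalization or without deprived replicate 4, and 5 after cyclic loess or without deprived replicate 6 or regular replicate 6. After removal of the diet means the heat shock mean correlated at 0.87 with Jun, 0.82 with Dusp1 and 0.80 with Fos over the 17 arrays. Supplemented replicate 3, the array with the highest Jun of its diet, also had the highest heat shock mean of its diet, 9.71, and deprived replicates 4 and 5 had the highest of all, 10.26 and 10.31. With this mean as a covariate 0 members passed in limma between the supplemented and regular diets, and 0 had an unadjusted p below 0.05. Over all genes 490 passed with it, against 3661 without it, and 2006 had an unadjusted p below 0.05. With it Jun stood at -0.01 (SE 0.22), Dusp1 at -0.11 (SE 0.18) and Fos at 0.08 (SE 0.20). Array spread moved with the diet as well, and with it as a covariate 0 members passed in limma and 1, Dusp2 at 0.53 (SE 0.16), had an unadjusted p below 0.05. Over all genes 0 passed with spread in the fit, and 1192 had an unadjusted p below 0.05. In that fit Jun stood at -0.88 (SE 0.57), Dusp1 at -0.68 (SE 0.39) and Fos at -0.11 (SE 0.40). Within diets, array spread correlated at 0.17 with Jun and 0.15 with Dusp1, and at 0.40 with Fos and 0.74 with Egr1. Array spread of the supplemented arrays did not overlap that of the other diets. Heat shock means overlapped only between supplemented and regular arrays. Neither fit can therefore fully separate its covariate from the diet. The parts of heat shock level and array spread in the differences between diets were not tested beyond these fits.

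**Figure D4:**
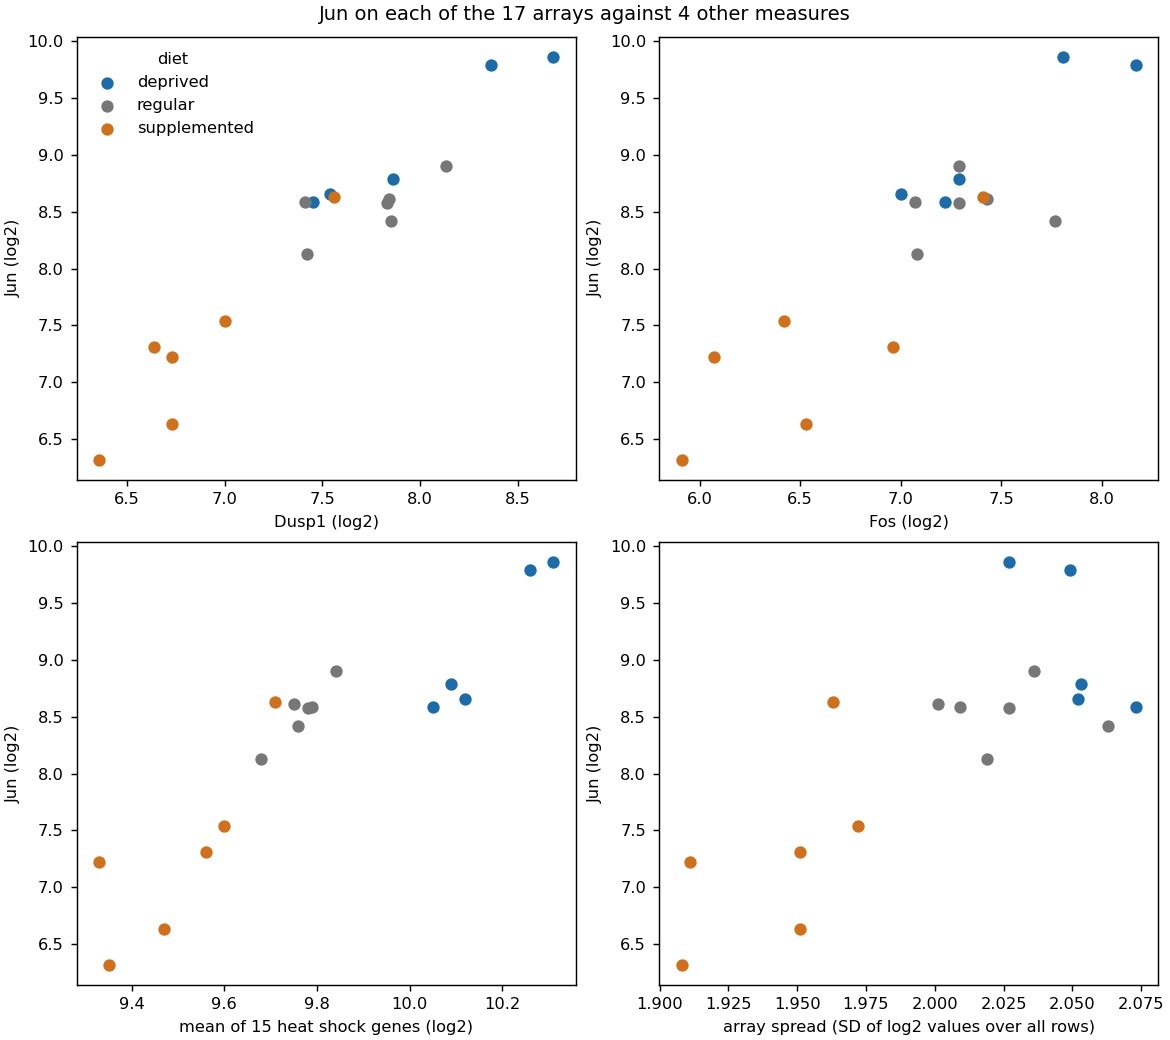
Jun (vertical axis, log2) on each of the 17 arrays against Dusp1, Fos, the mean of 15 heat shock genes and the array spread, coloured by diet. Supplemented replicate 3, with Jun at 8.63, lies with the regular arrays in the first 3 panels, and deprived replicates 4 and 5 are highest for Jun and for the heat shock mean.

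The genes most like the mean of the 9 members over the 17 arrays, by Pearson's r among all other tested genes, were Klf11 (0.953), Rgs2 (0.936), Ppp1r15a (0.925), Dnajb9 (0.924), Hspa5 (0.922), Sat1 (0.919), Pnrc1 (0.917) and Oser1 (0.913). Those most like Jun alone were Rgs2 (0.980), Sfpq (0.951), Sat1 (0.948), Klf11 (0.944) and Upf2 (0.944). In the mean of the 9 members each gene was centred but not scaled, so the most variable ones, Jun, Fos and Dusp1, weighed most. The first list is thus mainly one of genes like these. With diet means removed the r of Rgs2 with Jun was 0.960. Rgs2, a regulator of G protein signalling, was lower by -0.98 (SE 0.26, limma adjusted p = 0.00578) on the supplemented than on the regular diet, and without supplemented replicates 2 and 5 by -0.78, which did not pass (limma adjusted p = 0.0571).

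The counts of the gene lists that follow are to be read against all tested genes, of which 22.9% were lower and 10.8% higher on the supplemented than on the regular diet and 1.67% differed between the deprived and regular diets. No list was tested against other genes. Other rapid response genes were counted from a list of 43, of which 41 were tested. On the supplemented against the regular diet 11 were lower, 1 higher and 29 did not pass in limma (median -0.10), so 12 of 41 were called where 33.7% of all genes were. The 12 calls became 7 with array weights or without regular replicate 1, and 4 without supplemented replicates 2 and 5. The calls were led by the small GTPase gene Rhob (-0.72, SE 0.14), the G protein regulator Rgs1 (-0.82, SE 0.20) and Rgs2. On the deprived diet 2 were higher than on the regular one and 0 lower, the early activation antigen Cd69 (0.62, SE 0.09) and the mRNA decay factor Zfp36l2 (0.33, SE 0.07). Zfp36l2 did not pass after quantile normalization (limma adjusted p = 0.0874), after cyclic loess (0.0562) or without deprived replicate 2, 4 or 6 or regular replicate 1 (0.0506 to 0.0713). Among 11 tested other members of the AP-1 family and its bZIP relatives, 2 were higher on the supplemented diet and 0 lower (median 0.10). These were Atf2, a JUN partner that binds CRE sites (0.31, SE 0.07), and Maff (0.23, SE 0.07), the latter not passing with arrays centred on their medians (limma adjusted p = 0.0955). On the deprived diet 0 of the 11 passed.

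Of 15 other dual specificity phosphatases 3 were lower on the supplemented than on the regular diet and 1 higher (median -0.05), the ERK phosphatase Dusp6 at -0.33 (SE 0.08), Dusp10, which acts on p38 and JNK, at -0.38 (SE 0.11) and Dusp14 at 0.30 (SE 0.08), and 0 passed on the deprived diet. Dusp10 did not pass after quantile normalization (limma adjusted p = 0.0541), after cyclic loess (0.0558) or without supplemented replicates 2 and 5 (0.172). Dusp14 did not pass after quantile normalization (0.20, limma adjusted p = 0.0554) or cyclic loess (0.19, 0.07). Of 32 tested genes of the MAP kinase cascade 5 were lower and 3 higher (median -0.05). The Ras exchange factor Sos1 (-0.34, SE 0.07) and the adaptor Grb2 (-0.35, SE 0.09) were lower and the kinase Braf higher (0.30, SE 0.08). Grb2 did not pass after quantile normalization (-0.22, limma adjusted p = 0.0538), after cyclic loess (-0.21, 0.0525) or without supplemented replicates 2 and 5 (-0.20, 0.0554), nor Braf with arrays centred on their medians (0.22, 0.0527). On the deprived diet Sos1 (0.31, SE 0.07) and the ERK kinase Map2k1 (0.28, SE 0.06) were higher, 2 of 32. Neither passed after quantile normalization (limma adjusted p = 0.102 and 0.0713) or without deprived replicate 2, 4 or 6 or regular replicate 5 or 6 (0.0565 to 0.099 for Sos1 and 0.0558 to 0.0779 for Map2k1). Sos1 also did not pass after cyclic loess (limma adjusted p = 0.0562) or without regular replicate 1 (0.0546) or 2 (0.0579). Of 15 factors that act on immediate early promoters 4 were lower and 2 higher (median -0.08), Stat3 by -0.42 (SE 0.10), Nfatc3 by 0.25 (SE 0.07) and the SRF partner Elk4 by 0.27 (SE 0.08). With arrays centred on their medians neither Nfatc3 (0.17, limma adjusted p = 0.0773) nor Elk4 (0.19, 0.0735) passed, and Nfatc3 did not pass without supplemented replicates 2 and 5 either (0.21, 0.0673).

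Of 17 tested T cell activation genes 4 were lower on the supplemented diet and 0 higher (median -0.06), close to the share among all genes, with the CD40 ligand gene Cd40lg at -0.75 (SE 0.11), and 1, Cd69, was higher on the deprived diet. Of 13 glucocorticoid targets 3 were lower and 1 higher on the supplemented diet (median -0.04), with Fkbp5 at -0.55 (SE 0.11), and 4 were higher on the deprived diet, led by Cxcr4 (0.60, SE 0.07). Markers of other cells were at these levels: the mean of 8 B cell genes was 6.47 to 6.93 on supplemented and 6.22 to 6.75 on regular arrays with 4 of 7 tested genes higher and 0 lower, that of 17 myeloid genes 5.89 to 5.91 and 5.68 to 5.81 with 4 of 13 tested genes higher and 0 lower, and that of 12 CD4 T cell genes 10.23 to 10.47 and 10.48 to 10.66 with 4 of 12 lower and 0 higher, Cd4 among them at -0.59 (SE 0.11). Their part in the differences of the members was not tested.

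**Figure D5:**
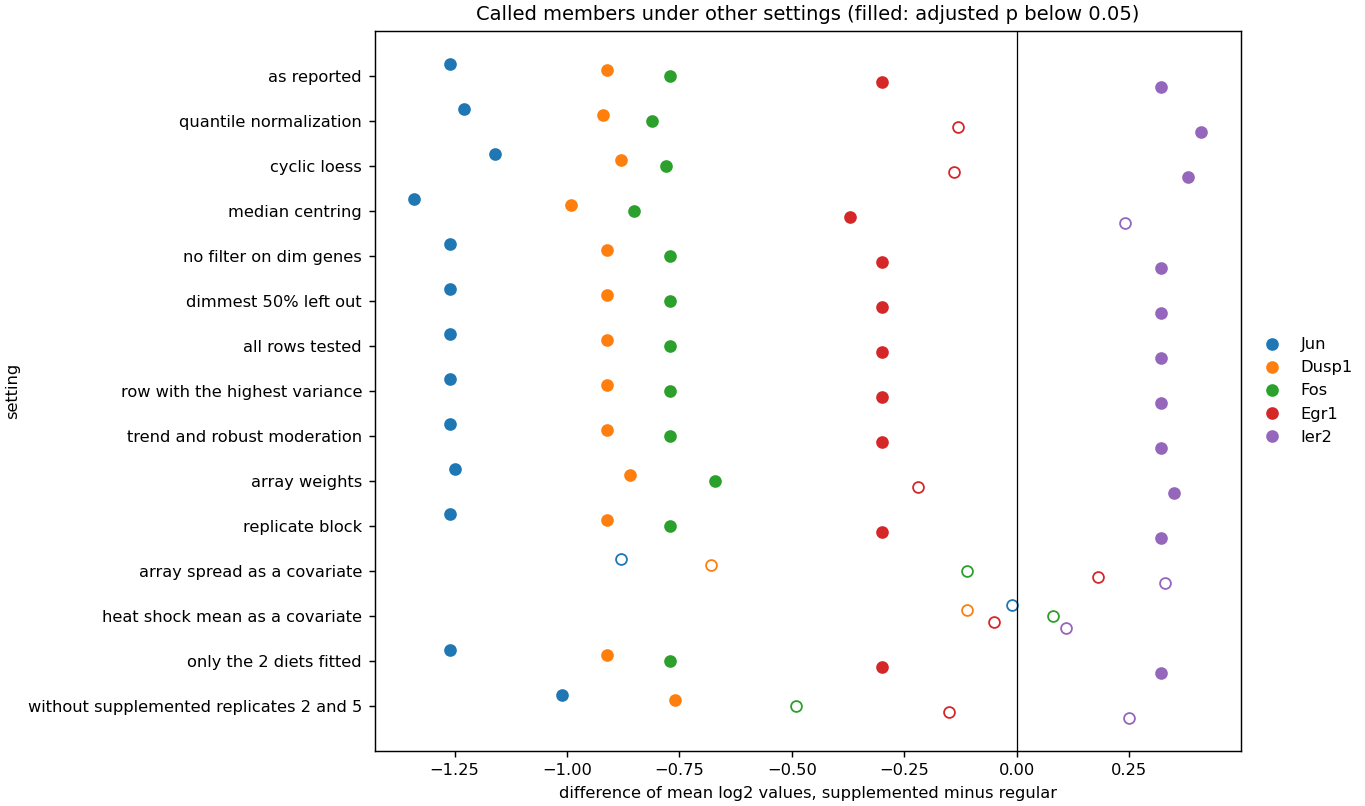
Supplemented minus regular differences (horizontal axis, log2 units) of the 5 called members as reported and under 14 other settings, 1 setting per line; filled points passed at an adjusted p below 0.05. Jun, Dusp1 and Fos pass under quantile normalization, cyclic loess and median centring, Egr1 moves to -0.13 after quantile normalization, and with the heat shock mean as a covariate Jun lies at -0.01.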

How the data were processed

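Each sample was 1 Affymetrix whole-transcript rat array hybridized, per the labels' protocols, with cDNA amplified from 250 ng of total RNA. The deposited values are log2 expression values of 29214 transcript clusters; the submitters' processing notes name RMA and Partek 6.0, and the log base was read from their range of 2.14 to 13.8. Probe file, genome build and filters: not given in the sources used here. The number of arrays limits the precision.

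A platform annotation gave 15310 rows 1 gene symbol and 323 rows several, and did not list 13581. Of the first, 15279 were updated through their Entrez identifiers to RefSeq symbols. Each gene was represented by its row with the highest mean, and the dimmest 25% of genes were left out. All 3 diets entered a single linear model (limma 3.58.1, R 4.3.3, 14 residual degrees of freedom) with p-values adjusted by Benjamini-Hochberg over all genes at 0.05. Replicates are called biological in the labels, with no word on separate handling, so p-values speak only of the spread among these arrays, which may be partly technical. Named genes are the members, the list genes with the smallest p and the genes of highest correlation. Members and lists were chosen with earlier results of these data known. The alternatives are named in the closing section.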

Additional observations from a re-analysis of the deposited data

How the results depend on the processing

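The count of 5 members called between the supplemented and regular diets was 4 to 5 with each array left out in turn and under the normalizations, filters, row choices, moderation, array weights and thresholds tried. With array spread as covariate it was 0 in limma (1 at an unadjusted p below 0.05), 0 with the heat shock mean as a covariate (0 unadjusted) and 2, Jun and Dusp1, without supplemented replicates 2 and 5, a setting chosen after seeing the data. Both covariates differed between the diets, so these fits cannot fully separate them from the diet, and their counts do not speak about the members. Between the supplemented and deprived diets the 3 calls became 3 to 4 with an array left out and 0 in limma with either covariate (2 unadjusted for spread, 3 for heat shock). Of all tested genes, 1206 had an unadjusted p below 0.05 with spread and 737 with heat shock in this comparison. Between the deprived and regular diets the limma count was 0 in every setting run (unadjusted 0 as reported, 1 with spread and 6 with heat shock). Over all tested genes, an unadjusted p below 0.05 was seen for 1816 as reported, 1595 with spread and 913 with heat shock. In the F test the 5 calls became 3 with all rows tested, 0 with array spread, 3 without supplemented replicates 2 and 5, and 3 to 5 with an array left out, with 3 without regular replicate 2, supplemented replicate 2 or supplemented replicate 5. The labels do not say whether equal replicate numbers pair the arrays. Over 16 same-numbered pairs r, with diet means removed, ran from -0.21 to 0.19, with 4 above 0.1. With so few arrays per diet these values cannot decide whether same-numbered arrays shared any handling. With the replicate block the counts were 5, 0, 4 and 4 in the same order. Signs turned as follows. With heat shock as a covariate, supplemented minus regular was 0.08 for Fos, -0.06 for Jund, 0.14 for Rgs2, 0.08 for Ctla4 and 0.08 for Ppp1r15a, deprived minus regular was -1.28 for Jun, -1.10 for Fos, -0.97 for Dusp1, -0.01 for Dusp2 and 0.03 for Nr4a1, and supplemented minus deprived was 1.28 for Jun, 1.18 for Fos, 0.86 for Dusp1, 0.18 for Dusp2, 0.44 for Egr1 and -0.33 for Ier2. With array spread, supplemented minus regular was -0.13 for Junb, 0.18 for Egr1, 0.28 for Dusp10, 0.17 for Grb2 and 0.00 for Stat3, deprived minus regular was -0.02 for Fos and -0.01 for Dusp2, and supplemented minus deprived was -0.11 for Junb, 0.54 for Dusp2, 0.45 for Egr1 and 0.03 for Nr4a1. With median centring Junb was 0.00 and Jund -0.02 (supplemented minus regular). Supplemented minus deprived was 0.02 for Dusp2 and 0.05 for Egr1 after quantile normalization, 0.01 and 0.05 after cyclic loess, 0.11 for Dusp2 without supplemented replicates 2 and 5, and, with single arrays left out, -0.04 to 0.02 for Jund (0.00 without deprived replicate 2), -0.12 to 0.04 for Dusp2 and -0.04 to 0.01 for Nr4a1. In heat shock mean, deprived arrays (10.05 to 10.31) did not overlap regular (9.68 to 9.84) or supplemented arrays (9.33 to 9.71). Comparisons with the deprived diet in the heat shock fit are therefore extrapolations. The cause of the changes of sign was not tested. Over all genes, the 3661 calls between supplemented and regular diets were 6901 with all rows, 0 with array spread, 490 with heat shock and 2171 without supplemented replicates 2 and 5, and median centring split them 312 higher to 3343 lower in place of 1173 to 2488. The 182 between deprived and regular were 40 after quantile normalization, 84 after cyclic loess, 889 with array weights, 68 with array spread, 5 with heat shock, 466 with only these diets fitted, 407 at a threshold of 0.1, 33 to 244 with an array left out and 301 without supplemented replicates 2 and 5. The 5132 between supplemented and deprived were 10785 with all rows and 0 with either covariate, and the 4927 of the F test were 10011, 72 with spread and 972 with heat shock. Median centring moved the median of all genes by -0.103 between the supplemented and deprived diets.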
